A study of Mus musculus with 4 samples.

Results

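The genes described here build autophagosomes and mark cargo for them, with emphasis on the receptors that lead mitochondria into autophagosomes. They were chosen by name as the autophagy core machinery, the mitophagy receptors, the regulator Tfeb and a pair of lysosomal membrane proteins. Of 41 listed genes, 39 had an array feature annotated to that gene alone, out of 19938 genes measured in this way. Optn, a cargo receptor, was not analysed here.

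Autophagy encloses part of the cytoplasm in a double membrane and delivers it to lysosomes. The ULK1 kinase complex starts the process, a class III phosphatidylinositol 3-kinase marks the growing membrane, and ATG proteins couple ATG8 proteins (LC3 and GABARAP) to its lipids. Receptors with an ATG8-binding stretch then tie cargo to the membrane. Maturing red cells remove their mitochondria in this way, and Bnip3l, also called Nix, is the receptor best known for that step in reticulocytes.

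RNA was measured in 2 groups of mouse erythroid cultures, with 2 cultures (A and B) per group and 1 array per culture. The MEL cultures were of an erythroleukemia line, grown in DMEM with fetal bovine serum, glutamine and puromycin, and differentiated for 48 hours with 17b-estradiol; the labels name no construct through which estradiol acts. The ES-EP cultures were of erythroid progenitors derived from mouse embryonic stem cells. These had been expanded in StemPro34 with erythropoietin (Epogen), IGF-1, dexamethasone, stem cell factor and b-mercaptoethanol, and were differentiated for 24 hours with erythropoietin, insulin, mifepristone and b-mercaptoethanol. Line, inducer, medium and time differ together between the groups, so their parts in a difference cannot be told apart. Nothing in the labels says when the duplicate cultures were grown, so the p-values cover the spread between these cultures, which may be technical.

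Each value is a deposited log2 expression value, and each difference is MEL minus ES-EP on that scale. An SE is limma's moderated standard error, which draws mostly on the variance pooled over all features. Both groups carried the erythroid identity that the labels give, with a mean log2 value over 10 erythroid markers of 10.66 and 10.72 in MEL and 11.77 and 11.78 in ES-EP cultures, although the band 3 gene Slc4a1 stood at 7.04 in MEL and 12.48 in ES-EP. Of these markers 2 were higher and 8 lower in MEL, 4 of them at least 2-fold lower. Macrophages are rich in lysosomes, and the 12 macrophage and monocyte markers averaged 4.61 and 4.48 in MEL and 4.94 and 4.85 in ES-EP cultures, near the lowest quartile of all genes on each array (4.60 to 4.85). Of the macrophage and monocyte markers 0 were higher and 5 were lower in MEL. Megakaryocyte markers averaged 7.08 and 6.99 in MEL and 5.54 and 5.62 in ES-EP cultures, with 3 of 5 higher. Mast cell markers averaged 4.21 and 4.14 in MEL and 5.202 and 5.145 in ES-EP cultures, with 5 of 6 lower, among them Ms4a2 at 3.93 in MEL and 7.45 in ES-EP. The other mast cell markers were dim, with group means of 3.56 to 5.75, and differed by at most 1.82-fold. Their list average thus rests mainly on Ms4a2. The part of these cell types in the results below was not tested. In such cultures fewer cells of a type and less RNA per cell cannot be told apart.

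Autophagy genes differed in both directions between the groups. Of the 39 genes, 11 were higher and 16 were lower in MEL than in ES-EP cultures at an adjusted p under 0.05, and 12 did not pass (limma, Benjamini-Hochberg over all 28944 tested features). Among all genes 21.8% were higher and 36.9% lower in MEL, so the members' shares of 28.2% and 41.03% lay near the background. After cyclic loess between arrays 29% of all genes were higher and 24.5% lower, and 15 members were higher and 15 lower. With features under the median signal left out, 34.7% of all genes were higher and 37.1% lower. The members then had 13 higher and 17 lower. At least 2-fold, 2 genes (5.13%) were higher, against 7.38% of all genes, and 5 genes (12.8%) were lower, against 4.93% of all genes. The higher pair was Bnip3 and Fundc1, both mitophagy receptors, and the lower ones were Atg14, Gabarap, Atg3, Ulk1 and Gabarapl2. In 34 of 39 genes the MEL and ES-EP cultures did not overlap, which also held for 80.2% of all genes. The median difference was -0.06 over the members and -0.14 over all genes. Relative to all genes the members' median was 0.08 as deposited, -0.07 after quantile normalization and -0.01 after cyclic loess, so its sign depended on the scaling.

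**Figure D1:**
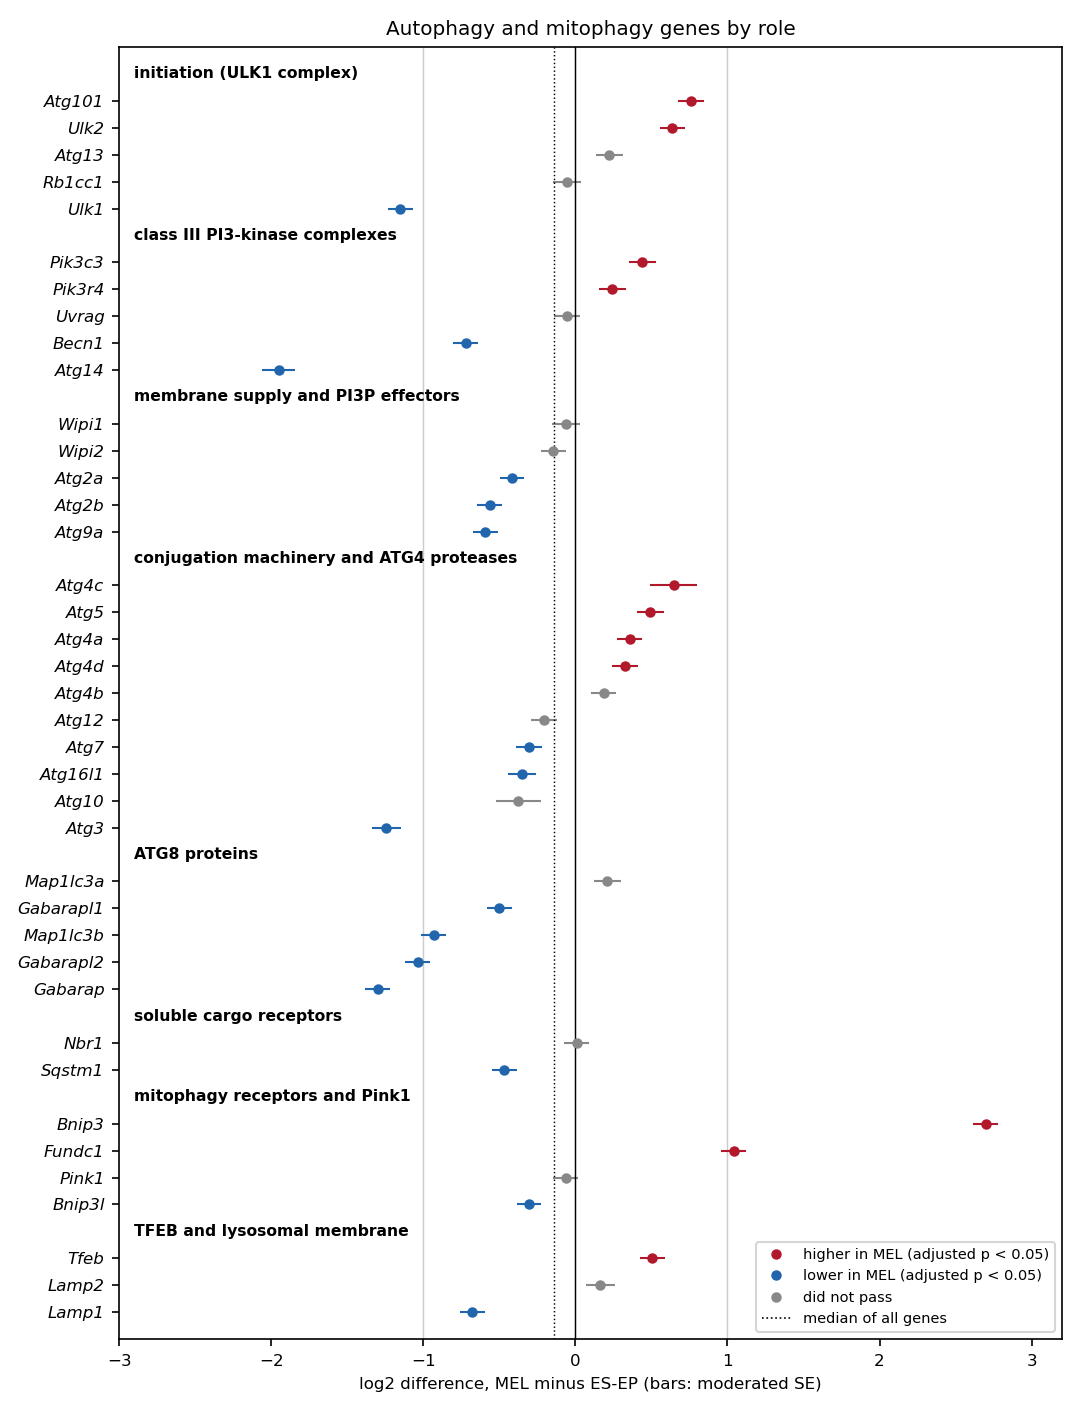
Log2 difference of each of 39 autophagy and mitophagy genes, MEL minus ES-EP, with the moderated standard error, grouped by role; the dotted line is the median of all genes (-0.14). Bnip3 lies farthest to the right at 2.70 and Atg14 farthest to the left at -1.95.

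RefSeq promoter windows (GRCm38.p6) were available for 32 of the 39 genes, each from 250 bases before to 50 after a transcript start. The windows below are shown because they belong to the most raised member, Bnip3, to 2 of the 5 genes that were at least 2-fold lower, and to Lamp1, and because each holds CACGTG, the E-box core that TFEB and related factors read. Capitals mark CACGTG, and each window is cut at 30 bases after the start.
Bnip3, chr7:138909477-138909756, minus strand: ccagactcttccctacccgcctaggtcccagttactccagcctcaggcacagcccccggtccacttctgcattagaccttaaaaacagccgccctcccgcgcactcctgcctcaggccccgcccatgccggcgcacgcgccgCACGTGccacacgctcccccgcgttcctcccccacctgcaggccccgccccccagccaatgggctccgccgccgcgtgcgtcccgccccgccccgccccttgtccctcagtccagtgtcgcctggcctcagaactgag
Atg14, chr14:47568405-47568684, minus strand: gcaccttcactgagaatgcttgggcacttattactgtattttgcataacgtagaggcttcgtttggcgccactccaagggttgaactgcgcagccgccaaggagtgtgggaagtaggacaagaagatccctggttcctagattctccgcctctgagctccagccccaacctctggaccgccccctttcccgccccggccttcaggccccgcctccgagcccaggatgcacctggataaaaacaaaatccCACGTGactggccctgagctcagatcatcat
Atg3, chr16:45158579-45158858, plus strand: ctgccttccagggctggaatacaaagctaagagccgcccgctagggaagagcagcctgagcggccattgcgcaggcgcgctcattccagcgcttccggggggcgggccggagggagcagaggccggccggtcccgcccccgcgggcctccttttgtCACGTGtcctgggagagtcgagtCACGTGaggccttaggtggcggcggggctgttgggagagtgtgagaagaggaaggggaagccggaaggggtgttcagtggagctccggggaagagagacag
Lamp1, chr8:13158911-13159190, plus strand: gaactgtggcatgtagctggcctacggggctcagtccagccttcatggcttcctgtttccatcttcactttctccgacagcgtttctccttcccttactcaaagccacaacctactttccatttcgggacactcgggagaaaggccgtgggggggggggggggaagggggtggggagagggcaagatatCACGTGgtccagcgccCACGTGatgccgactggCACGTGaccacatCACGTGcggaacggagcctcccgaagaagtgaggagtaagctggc
Counted from the transcript start, the motif begins at -108 in the Bnip3 window and at -1 in that of Atg14. It occurs 2 times in the Atg3 window and 4 times in that of Lamp1. CACGTG reads the same on both strands. It was present in the windows of 6 of 32 members (18.75%), namely Bnip3 and Atg5, which were higher in MEL, and Atg14, Atg3, Atg7 and Lamp1, which were lower. Of all 27025 genes with a window, 8.09% held it. The GATA-type letters TGATAA or AGATAA, searched on both strands, occurred for 3 members (9.38%), Atg4a, Atg4d and Pink1, against 21.0% of all genes. Member windows had a median GC content of 60.0%, against 52.7% for all windows, and such matches only describe the letters present.

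Of the 4 measured mitophagy genes, 2 were higher in MEL, 1 was lower and 1 did not pass. Over all genes 21.8% were higher and 36.9% lower. Bnip3 encodes an outer mitochondrial membrane receptor with an ATG8-binding stretch and is a classic hypoxia-induced gene. Its brighter feature (10414269) had 11.47 and 11.50 in MEL cultures A and B, against 8.76 and 8.82 in ES-EP cultures A and B. Both MEL cultures stood far above both ES-EP cultures, a 6.48-fold difference (2.70 ± 0.08, SE, adjusted p = 4.53e-07), and 214 of 19938 genes had a larger rise. Fundc1, another receptor of the outer membrane, had 9.32 and 9.34 in MEL and 8.31 and 8.28 in ES-EP cultures. It was 2.06-fold higher in MEL (1.04 ± 0.08, adjusted p = 4.01e-05).

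Bnip3l, the close relative of Bnip3 and the receptor of reticulocyte mitophagy, was slightly lower in MEL. It had 11.83 and 11.80 in MEL and 12.11 and 12.12 in ES-EP cultures, a 1.23-fold lower level in MEL (-0.30 ± 0.08, adjusted p = 0.0148). The groups did not overlap, but the call was lost after centring (adjusted p = 0.116), after cyclic loess (0.0639), and without ES-EP culture A (0.0901) or B (0.0968). The centred fit used a shared variance for all features, so its p-values followed the size of the difference alone. Pink1, a kinase that accumulates on damaged mitochondria, had 8.20 and 8.11 in MEL and 8.20 and 8.24 in ES-EP cultures. Its groups overlapped, and the difference of -0.06 had a 95% interval of -0.26 to 0.13 (adjusted p = 0.543).

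**Figure D2:**
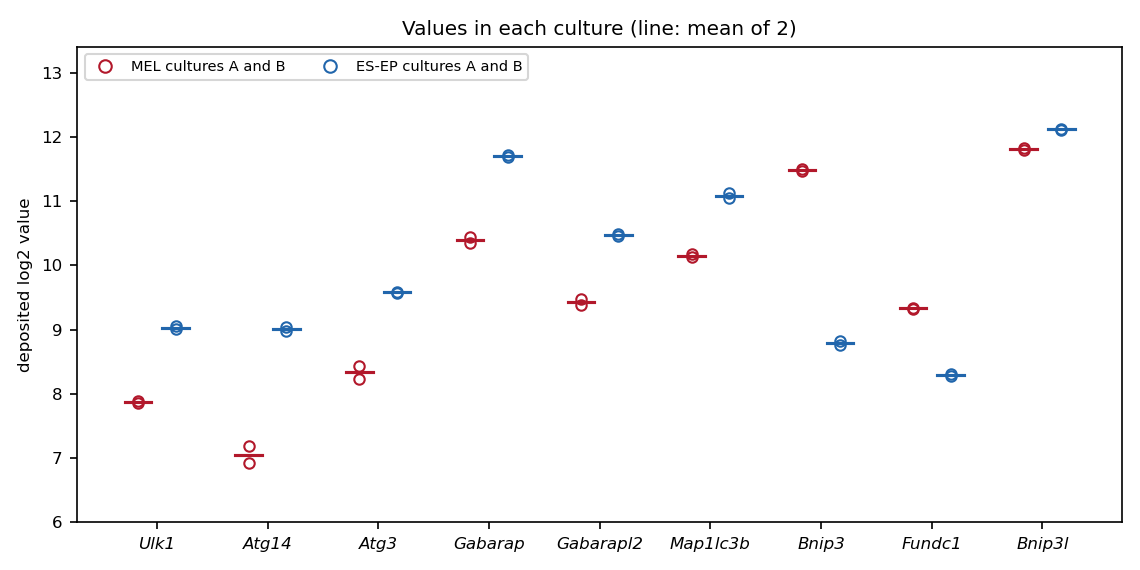
Deposited log2 value of 9 autophagy genes in each culture, MEL left of ES-EP, with lines at the means of 2 cultures. Bnip3 and Fundc1 lie higher in MEL, the other 7 genes lower, and duplicates lie close together in each.

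The ATG8 genes, whose products are the membrane-bound adaptors of the autophagosome, were mostly lower in MEL. Of 5 measured, 4 were lower and the other did not pass, where 36.9% of all genes were lower. Their median difference was -0.93, against -0.14 for all genes. Gabarap had 10.45 and 10.35 in MEL and 11.71 and 11.69 in ES-EP cultures, and was 2.46-fold lower in MEL (-1.30 ± 0.08, SE, adjusted p = 1.66e-05). Map1lc3b, which encodes the LC3 form used most often as an autophagosome marker, had 10.13 and 10.17 in MEL and 11.13 and 11.05 in ES-EP cultures. This was a 1.91-fold lower level (-0.93 ± 0.08, adjusted p = 8.39e-05). Its dimmer feature (10419354) had 10.06 and 10.10 in MEL and 11.16 and 11.07 in ES-EP cultures. There it was 2.05-fold lower (adjusted p = 4.87e-05), so whether Map1lc3b passed 2-fold depended on the feature.

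Gabarapl2, also known as GATE-16, had 9.39 and 9.47 in MEL and 10.48 and 10.45 in ES-EP cultures on its brighter feature, 2.05-fold lower in MEL (adjusted p = 4.91e-05). Its difference was -0.91 after quantile normalization, -0.97 after centring, -0.93 after cyclic loess and -0.99 without MEL culture A, so that 4 in place of 5 members were at least 2-fold lower there. Gabarapl1 was 1.41-fold lower (-0.50 ± 0.08, adjusted p = 0.00175). Map1lc3a went the other way, with 7.10 and 6.99 in MEL and 6.88 and 6.79 in ES-EP cultures. Its difference of 0.21 did not pass as deposited (adjusted p = 0.0777) and passed after cyclic loess (0.0263) and with features under the median signal left out (0.0498).

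Of the 10 conjugation and protease genes, 4 were higher and 3 lower in MEL, with a median difference of -0.01. For all genes the shares were 21.8% higher and 36.9% lower, with a median of -0.14. Atg3, the E2-like enzyme that hands ATG8 to phosphatidylethanolamine, had 8.24 and 8.44 in MEL and 9.59 and 9.58 in ES-EP cultures. It was 2.37-fold lower in MEL (-1.24 ± 0.10, SE, adjusted p = 4.02e-05), with MEL culture B closer to the ES-EP cultures than culture A. Atg7, the E1-like enzyme that activates both ATG8 and ATG12, was 1.24-fold lower in MEL (-0.31, adjusted p = 0.0191). Atg16l1, which places the ligase on the membrane, was 1.28-fold lower (-0.35, adjusted p = 0.0138). The centred fit used a shared variance for all features. The smaller calls were fragile. That of Atg7 was lost after centring (0.113) and without MEL culture A (0.0519), ES-EP culture A (0.0802) or B (0.120). That of Atg16l1 was lost after centring (0.0526) and without ES-EP culture B (0.117).

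Atg5, the partner to which ATG12 is joined, was higher in MEL, at 8.58 and 8.70 against 8.11 and 8.19 in ES-EP cultures (0.49 ± 0.09, SE, adjusted p = 0.00265). Its partner Atg12 had a difference of -0.20 (adjusted p = 0.0749). Atg12 passed after quantile normalization (0.0480), with an intensity-trend prior (0.0460) and with dim features left out (0.0457). Atg10, the E2-like enzyme that joins the pair, stood at 5.95 and 6.42 in MEL and 6.56 and 6.56 in ES-EP cultures. Its difference of -0.38 missed the threshold (adjusted p = 0.0632), and without MEL culture B it was -0.61 and passed (0.00383), while without MEL culture A it was -0.14 (0.185). It also passed after quantile normalization (0.0464), with an intensity-trend prior (0.0374) and with 1-symbol features (0.0476). It passed after centring too (0.0351), but that fit used a shared variance and so set aside the spread between its MEL cultures.

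The ATG4 proteases, which trim ATG8 proteins before coupling and release them afterwards, were higher in MEL in 3 of 4 cases. Among all genes 21.8% were higher, and 34.7% with features under the median signal left out. Atg4c was 1.56-fold higher (0.65 ± 0.15, SE, adjusted p = 0.00918), with 7.19 and 7.63 in MEL and 6.67 and 6.87 in ES-EP cultures. The spread between its cultures was among the widest of the members. Atg4a was 1.28-fold higher (adjusted p = 0.00746) and Atg4d 1.25-fold higher (adjusted p = 0.0147). The call for Atg4a did not survive leaving out ES-EP culture A (0.0603), and that of Atg4d without ES-EP culture A (0.105) or B (0.0620). Atg4b, the protease with the broadest action on ATG8 proteins, had a difference of 0.19 that did not pass (adjusted p = 0.0895), though it passed after quantile normalization (0.0168), after cyclic loess (0.0227) and with an intensity-trend prior (0.0251).

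Within the initiation complex the kinase genes Ulk1 and Ulk2 went in opposite directions. Ulk1, which encodes the kinase that receives AMPK and mTORC1 signals, had 7.87 and 7.90 in MEL and 9.01 and 9.05 in ES-EP cultures. It was 2.22-fold lower in MEL (-1.15 ± 0.08, SE, adjusted p = 2.51e-05). Ulk2, its paralog, had 7.82 and 7.88 in MEL and 7.18 and 7.25 in ES-EP cultures, a 1.56-fold higher level (0.64 ± 0.08, adjusted p = 5.90e-04). Atg101, which stabilises ATG13 in the complex, was 1.69-fold higher (0.76 ± 0.09, adjusted p = 3.00e-04). Atg13, the regulatory subunit, had a difference of 0.22 (adjusted p = 0.0697) that passed after quantile normalization (0.0166) and cyclic loess (0.0151), with an intensity-trend prior (0.0230) and with dim features left out (0.0454). Rb1cc1, which encodes the scaffold FIP200, overlapped between the groups with a difference of -0.06 and a 95% interval of -0.27 to 0.16.

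Of the 5 class III PI3-kinase genes, 2 were higher and 2 lower in MEL, where 21.8% and 36.9% of all genes were called. Atg14, the subunit that brings the kinase to the site of autophagosome formation, showed the largest fall of all members. It had 6.92 and 7.19 in MEL and 9.04 and 8.98 in ES-EP cultures, 3.87-fold lower in MEL (-1.95 ± 0.11, SE, adjusted p = 8.08e-06), and 218 of 19938 genes fell further. Becn1, which encodes Beclin 1, was 1.65-fold lower, at 9.39 and 9.46 in MEL and 10.14 and 10.15 in ES-EP cultures (-0.72 ± 0.08, adjusted p = 2.84e-04).

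Pik3c3, the lipid kinase itself, was 1.36-fold higher in MEL (0.44 ± 0.09, SE, adjusted p = 0.00473). Its partner Pik3r4 (VPS15) was 1.18-fold higher with an adjusted p of 0.0453. That call was lost after quantile normalization (0.0692) and without MEL culture B (0.117), ES-EP culture A (0.156) or ES-EP culture B (0.210). Uvrag, which takes the place of ATG14 in the endosomal form of the complex, had 8.79 and 8.93 in MEL and 8.91 and 8.92 in ES-EP cultures. These values overlapped, with a 95% interval of the difference of -0.26 to 0.15.

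Of the 5 genes for lipid transfer, membrane delivery and lipid reading, 3 were lower in MEL and 2 did not pass. Among all genes 36.9% were lower. Atg9a, the lipid scramblase of the vesicles that seed the autophagosome, was 1.51-fold lower, at 8.45 and 8.55 in MEL and 9.09 and 9.09 in ES-EP cultures (-0.59 ± 0.08, SE, adjusted p = 8.67e-04). The lipid transfer protein genes Atg2b and Atg2a were 1.48-fold and 1.34-fold lower (adjusted p = 9.95e-04 and 0.00365). The WIPI genes, whose products read phosphatidylinositol 3-phosphate, did not pass, with differences of -0.06 for Wipi1 (95% interval -0.27 to 0.15) and -0.14 for Wipi2 (-0.33 to 0.04).

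Among the soluble cargo receptors, Sqstm1 was lower in MEL and Nbr1 did not pass. Sqstm1 encodes p62, which gathers ubiquitinated cargo. It had 10.71 and 10.68 in MEL and 11.19 and 11.14 in ES-EP cultures, 1.38-fold lower (-0.47 ± 0.08, SE, adjusted p = 0.00233). Nbr1 had 9.97 and 10.03 in MEL and 10.00 and 9.98 in ES-EP cultures, with a 95% interval of the difference of -0.18 to 0.20.

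Tfeb, a transcription factor of lysosome and autophagy genes, was 1.42-fold higher in MEL, at 7.59 and 7.52 against 7.05 and 7.06 in ES-EP cultures (0.51 ± 0.08, SE, adjusted p = 0.00167). Lamp1, a main protein of the lysosomal membrane, was 1.60-fold lower, at 10.31 and 10.37 in MEL and 11.01 and 11.03 in ES-EP cultures (-0.68 ± 0.08, adjusted p = 3.81e-04). Lamp2, its relative needed for fusion and for chaperone-mediated autophagy, had a difference of 0.16 that did not pass (95% interval -0.05 to 0.38, adjusted p = 0.170). It passed after quantile normalization (0.0175), after cyclic loess (0.0250) and without MEL culture A (0.0498).

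Of the 39 members, 6 had 2 features, and in every such gene both features passed in the same direction. Feature numbers follow the genome, with 94.3% of neighbouring gene features on the same chromosome. The single feature of all 33 other members lay among features of the gene's own chromosome, whereas 5 of the 6 genes had 1 feature numbered among genes of another chromosome. These were Atg4a, Bnip3, Bnip3l, Gabarapl2 and Map1lc3b. The brighter Bnip3 feature, for example, is numbered between BC061237 and Ptger2, while the other lies between Mapk1ip1 and Stk32c. If near-identical copies of these transcripts exist, their signal cannot be separated in such features. Probe sequences and array coordinates were not available, so this was not tested.

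At the gene's own place, Bnip3 (feature 10568785) had 10.63 and 10.51 in MEL and 8.18 and 8.03 in ES-EP cultures, 5.52-fold higher in MEL (2.46 ± 0.09, SE, adjusted p = 1.31e-06). Bnip3l had 11.61 and 11.61 in MEL and 11.95 and 11.99 in ES-EP cultures there, 1.28-fold lower (adjusted p = 0.00721). At its own place Gabarapl2 (feature 10575616) had 4.78 and 4.63 in MEL and 6.44 and 6.84 in ES-EP cultures. Its difference was -1.93 ± 0.14 (adjusted p = 2.88e-05), against -1.04 on the brighter feature. The MEL values on this feature lay near the lowest quartile of all genes on those arrays (4.69 and 4.60).

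**Figure D3:**
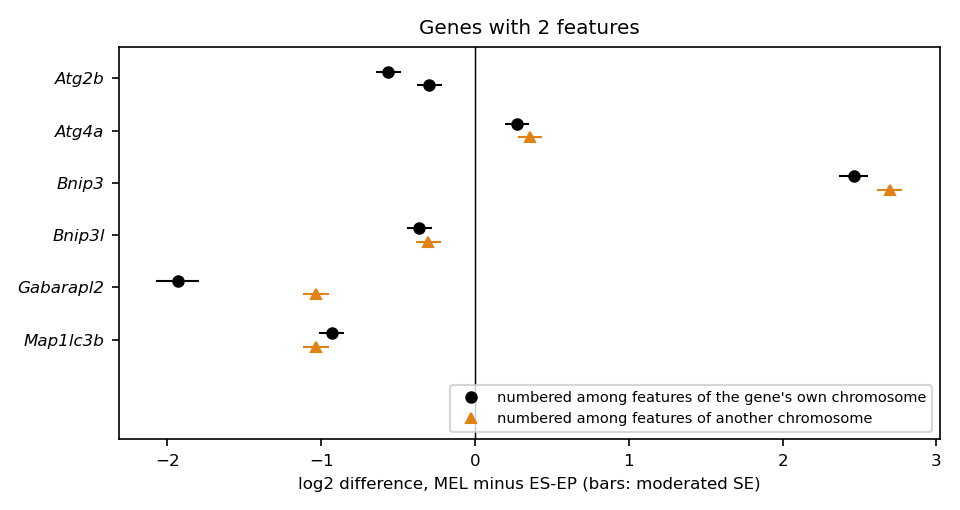
Log2 difference, MEL minus ES-EP, with moderated standard error for both features of the 6 members that have 2. Circles are features numbered among those of the gene's own chromosome and triangles those numbered elsewhere; the pairs lie on the same side of 0, and those of Gabarapl2 are farthest apart (-1.93 and -1.04).

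Other genes of the pathway, from 7 lists of 156 genes of which 148 were measured, were also split, with 48 higher and 59 lower in MEL, where 21.8% and 36.9% of all genes were called. Cyclic loess gave 53 higher and 50 lower, so the excess of lower genes depended on the scaling. Centring, with its shared variance for all features, gave 48 higher and 48 lower. The listed genes were bright, with median values of 8.88 in MEL and 8.94 in ES-EP, against 6.11 and 6.04 for all genes. With features under the median signal left out, 34.7% of all genes were higher and 37.1% lower. The lists' median differences ran from -0.30 to 0.10, around the -0.14 of all genes. Among 24 further autophagy and selective autophagy factors, 9 were higher and 10 lower. Retreg1 (Fam134b), a receptor for autophagy of the endoplasmic reticulum, was 5.34-fold higher, at 6.38 and 6.38 in MEL and 4.02 and 3.90 in ES-EP cultures (adjusted p = 9.26e-07). Its ES-EP values lay under the lowest quartile of all genes on those arrays (4.85 and 4.83), so the size of the fold is uncertain. Tbk1, a kinase that phosphorylates cargo receptors, was 1.76-fold lower (adjusted p = 1.89e-04).

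Of 22 measured mitophagy modifiers and genes of mitochondrial dynamics, 7 were higher and 8 lower in MEL. The all-gene shares were 21.8% higher and 36.9% lower. Nipsnap1, whose product tags depolarised mitochondria for autophagy, was 3.24-fold higher, at 8.64 and 8.71 in MEL and 6.99 and 6.97 in ES-EP cultures (adjusted p = 4.08e-06). Usp30, a mitochondrial deubiquitinase that opposes mitophagy, was 1.77-fold higher (adjusted p = 0.00102). Marchf5, an outer membrane ubiquitin ligase, was 2.02-fold lower, and the mitochondrial phosphatase Pgam5 was 1.61-fold lower (adjusted p = 1.32e-04 and 3.20e-04).

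Fusion of autophagosomes with lysosomes had 4 higher and 7 lower genes of 16, where 21.8% and 36.9% of all genes were called. All 4 genes past 2-fold were lower in MEL, and 3 of them were named after their values were seen. Among all genes 4.93% were at least 2-fold lower and 7.38% at least 2-fold higher. Vamp8, the lysosomal SNARE of this step, was 2.86-fold lower, at 8.37 and 8.50 in MEL and 9.94 and 9.96 in ES-EP cultures (adjusted p = 9.35e-06). Vps33a and Vps11, subunits of the HOPS tether, were 2.19-fold and 2.11-fold lower, and Epg5, a tethering factor, was 2.03-fold lower. In contrast, the HOPS subunit gene Vps39 was 1.80-fold higher (adjusted p = 2.12e-04).

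Where 21.8% of all genes were higher and 36.9% lower, lysosomal hydrolases and membrane proteins had 11 higher and 11 lower genes of 28. Past 2-fold these were 5 and 2, against 7.38% and 4.93% of all genes. Hexa, a subunit of beta-hexosaminidase, was 13.6-fold higher, at 9.26 and 9.28 in MEL and 5.53 and 5.48 in ES-EP cultures (3.77 ± 0.08, SE, adjusted p = 1.24e-07). The protease gene Ctsl was 9.13-fold higher, with 9.26 and 9.36 in MEL and 6.24 and 5.99 in ES-EP cultures. The proteases Ctsd and Ctsb went the other way, at 2.31-fold and 2.02-fold lower (adjusted p = 2.06e-05 and 5.92e-05). Ctsd stood at 10.87 and 10.94 in MEL and 12.12 and 12.11 in ES-EP cultures. The proton pump that acidifies lysosomes had 3 higher and 8 lower genes of 15, where 21.8% and 36.9% of all genes were called. Atp6v1b2 was 1.95-fold lower and Atp6v1c1 1.67-fold higher.

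The mTORC1 and AMPK genes, which act on the ULK1 kinase, held the largest differences of the 7 lists in both directions. Of 32 genes, 10 were higher and 12 lower in MEL, where 21.8% and 36.9% of all genes were called. Sesn3, a sestrin that restrains mTORC1, was 15.5-fold higher, at 9.24 and 9.38 in MEL and 5.34 and 5.36 in ES-EP cultures (adjusted p = 1.31e-07). Rragd, a Rag GTPase that brings mTORC1 to lysosomes, was 15.01-fold lower, at 4.42 and 4.52 in MEL and 8.36 and 8.39 in ES-EP cultures (adjusted p = 1.24e-07). Its MEL values lay under the lowest quartile of all genes on those arrays (4.69 and 4.60), so the size of this fold is uncertain too. Among AMPK subunits, picked after their values were seen, Prkag2 was 12.1-fold and Prkab2 3.68-fold higher while Prkab1 was 2.37-fold lower. The subunit genes Prkaa1, Prkaa2 and Prkag1 did not pass, with differences of 0.04, -0.01 and -0.06. Prkag2 had 4.96 and 4.89 in ES-EP cultures, near the lowest quartile of all genes there (4.85 and 4.83). The size of its fold is thus uncertain.

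Of 11 transcription factors of autophagy and lysosome genes, 4 were higher and 3 lower in MEL. The all-gene shares were 21.8% higher and 36.9% lower. Foxo1, which activates autophagy genes, was 3.81-fold higher, at 7.69 and 7.81 in MEL and 5.90 and 5.74 in ES-EP cultures (adjusted p = 4.53e-06). Tfe3, a relative of Tfeb singled out here with its value known, was 2.01-fold higher, at 8.95 and 9.09 in MEL and 7.93 and 8.10 in ES-EP cultures. Atf4, a stress response factor, was 1.72-fold lower (adjusted p = 4.51e-04). Foxo4, also picked with its value known, was 2.03-fold higher in MEL (adjusted p = 4.47e-05). Foxo3, a related factor that was likewise singled out with its value known, had 10.08 and 10.05 in MEL and 10.10 and 10.17 in ES-EP cultures and did not pass (adjusted p = 0.515).

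**Figure D4:**
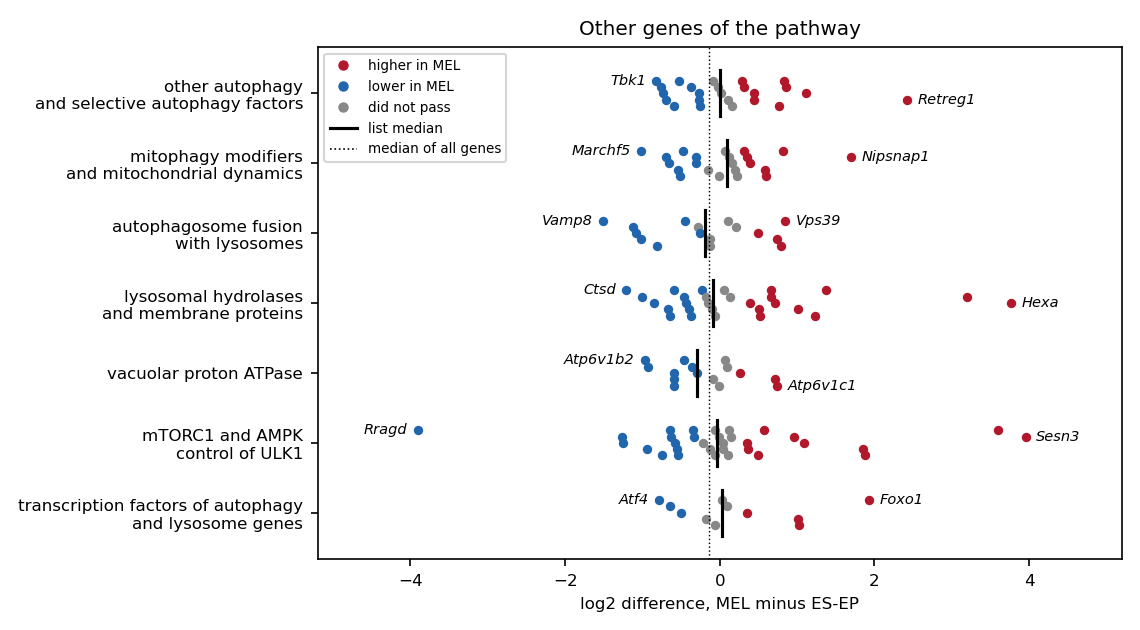
Log2 difference, MEL minus ES-EP, of 148 other genes of the pathway in 7 lists; each point is a gene, solid bars are list medians and the dotted line is the median of all genes (-0.14). The gene with the highest and the gene with the lowest difference of each list are named, with Sesn3 at 3.96 and Rragd at -3.91 the outermost.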

How the data were processed

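RNA from 4 cultures was hybridised to 4 Affymetrix mouse gene arrays. The deposited log2 values were made by RMA in GeneSpring GX, per the labels; the software version, any filter and the set of arrays processed jointly are not given there. That the scale is log2 was inferred from the range of values. The table has no detection calls, so dim values were not told from background, and RMA hides any change in total RNA per cell.

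Of 35557 features, 6613 control features were left out. Names came from GEO's platform annotation, updated through Entrez identifiers with RefSeq (GRCm38.p6). Among 28944 tested features, 21789 had 1 gene symbol, 1621 several and 5534 none; 21698 matched RefSeq. A gene is represented by its brightest feature. MEL was compared with ES-EP by limma 3.58.1 (R 4.3.3) with lmFit and eBayes, Benjamini-Hochberg adjustment across all tested features and a threshold of 0.05. An exact permutation test of 4 arrays cannot go below a two-sided p of 0.333, so the calls depend on the variance that limma pools over features. SDs and SEs come from 2 arrays per group, a number that limits the precision. Each SE is limma's moderated one, with 5.15 prior and 2 residual degrees of freedom. It thus draws more on the variance pooled over features than on the gene's own cultures. The fit was also run on simulated data with independent noise and few changed features. Many more genes differ here, so that run does not show how far these calls can be trusted.

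Members, pathway lists and tests were chosen with earlier results of these data known. All members are reported; of each pathway list, the passing genes with the largest rise and fall are named (2 of each for mitophagy and lysosome lists). Besides Optn, 1 listed gene is not reported here. Promoter windows were taken from RefSeq. Alternatives were quantile normalization, centring, cyclic loess, 2 other priors, a filter on dim features, features with 1 symbol, the replicate letter as a block, each culture left out, the mean of a gene's features and a 1.5-fold criterion. The feature at a gene's own place was added after the data were seen.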

Additional observations from a re-analysis of the deposited data

How the results depend on the processing

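The call of 21 of the 27 passing members held under every alternative run for single genes, and 0 of the 27 changed sign; the other 6 (Pik3r4, Atg4a, Atg4d, Atg7, Atg16l1 and Bnip3l) lost theirs under at least 1 alternative. Sign changes occurred in 5 members near 0 that did not pass. After centring these were Rb1cc1 (0.009), Uvrag (0.0107), Wipi1 (0.0034) and Pink1 (0.001), and after cyclic loess Rb1cc1 (0.0247), Uvrag (0.0405), Wipi1 (0.0067) and Pink1 (0.0027). With a culture left out, Rb1cc1 ranged from -0.1346 to 0.0229, Uvrag from -0.1195 to 0.0112, Wipi1 from -0.1363 to 0.0135 and Nbr1 from -0.0216 to 0.0362. The members' median of -0.06 was 0.001 after centring, 0.0027 after cyclic loess and between -0.1363 and -0.072 with a culture left out; the cause was not tested. Quantile normalization gave a median of all genes of -0.02, centring one of -0.07 and cyclic loess one of 0.02, so small differences depend on the scaling. In the centred fit the members' adjusted p-values followed the size of the difference alone, down to 8.08e-98 for Bnip3. That fit gave all features a shared variance, so calls that changed with centring do not reflect scaling alone. A 1.5-fold criterion by its construction left 5 higher and 9 lower members. With the replicate block, 10 members were higher and 17 lower, since Pik3r4 lost its call (adjusted p = 0.0521) and Atg10 gained one (0.0411); deviations of same-lettered cultures correlated at 0.11 over features, and the labels do not say that a letter marks a shared batch. Counts with a culture left out ran from 8 to 12 higher and 13 to 17 lower members. Gabarapl2 moved to -1.93 on the feature at its own place, a choice made after seeing the data. The number of arrays and the lack of detection calls limit what can be said of dim features.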
